A study of Mus musculus with 4 samples.

Results

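Slit1, Slit2 and Slit3 encode secreted ligands, and Robo1, Robo2 and Robo3 encode the transmembrane receptors that bind them. These 6 genes were taken by name from the 45706 features of nuclear RNA counts of the adult mouse dentate gyrus. Slit proteins turn away growing axons and migrating neurons that carry Robo receptors, through the actin cytoskeleton. Robo1 and Robo2 are the main Slit receptors of the forebrain. Mammalian Robo3 binds Slit ligands poorly and is best known for commissural axons of the hindbrain and spinal cord. In the dentate gyrus, stem cells on the inner border of the granule layer give rise to neuroblasts that move a short way, extend dendrites into the molecular layer and send mossy fibre axons to CA3.

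Nuclei came from mice of both sexes with a tamoxifen-inducible Cre and the CAGfloxStop-Sun1/sfGFP reporter on a C57Bl/6J background, given tamoxifen at 6 to 8 weeks of age, so that stem cells with active Cre and their progeny carried a fluorescent nuclear envelope. Left dentate gyri of 4 mice were pooled at each of 4 times, 1, 2, 4 and 8 weeks after tamoxifen (libraries w1, w2, w4 and w8), and labelled nuclei were sorted and sequenced by droplet capture of polyadenylated 3′ ends. The model follows only cells in which the inducible Cre recombined the reporter, and mice lacking Slit or Robo genes were not part of it. The deposited clusters run from radial glia-like stem cells (RGL) through neural progenitor cells (NPC), neuroblasts (NB1, NB2), immature granule cells (GCimm1, GCimm2) and young granule cells (GCyoung) to mature granule cells (GCmat1, GCmat2), with astrocytes (Astro), pericyte-labelled nuclei (Peri), oligodendrocytes (Oligo) and their precursors (OPC) apart.

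The Slit and Robo genes are linked by a microRNA. In GENCODE M21 on GRCm38, Mir218-1 lies in an intron of Slit2 at chr5:48223942-48224051 and Mir218-2 in an intron of Slit3 at chr11:35616816-35616925, both on the strand of their host, and RefSeq (GRCm38.p6) gives the same mature miR-218-5p for both. It is shown here because a ligand gene that is transcribed carries it and because a Robo gene can hold its matches. The capitals in the microRNA mark the seed, bases 2 to 8.
mmu-miR-218-5p: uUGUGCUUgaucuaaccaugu
The complement of the seed, AAGCACA, was searched on the transcribed strand of the 3′ UTR of 1 GENCODE transcript for each gene. It was found 1 time for Robo1, 2 times for Robo2, 1 time for Robo3 and 2 times for Slit2, and these letters were not found in the windows of Slit1 and Slit3. Of 20997 mouse 3′ UTRs, 13.8% held the match, and of those of similar length 18.5% for Robo1, 38.0% for Robo2 and 3.09% for Robo3. The receptor matches are given in GRCm38 with the match in capitals.
Robo1, chr16:73045337-73045366, plus strand: tttggttttaaAAGCACAatcactaaactt
Robo2, chr16:73895347-73895376, minus strand: tatttggtgatAAGCACAaatctctactcc
Robo2, chr16:73893021-73893050, minus strand: acggcagacccAAGCACAgcttctttcaga
Robo3, chr9:37416233-37416262, minus strand: gtgactcactgAAGCACActgtctacaaca
A match describes letters and no binding. Both Mir218 features held 0 UMIs, and the mature microRNA is not polyadenylated and was not measured.

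Of 17046 barcodes, the 14367 with a deposited cluster were used, and the kept libraries held 2867 to 4243 nuclei and 13227971 to 28595331 UMIs. Between 1 and 6 barcodes were shared by a pair of libraries, of which 0 to 2 had the same cluster. The fixed markers were highest in their own cluster for 6 of 6 of Astro, 6 of 6 of NPC, 5 of 5 of Oligo, 4 of 4 of OPC and 5 of 6 of the mural and leptomeningeal list in Peri. For RGL it was 3 of 6, with Gfap highest in Astro. Mature granule cell markers were highest in GCyoung, GCmat1 or GCmat2 for 5 of 5, and immature neuron markers in NB1 or NB2 for 6 of 7. Each week was 1 pool, so no test between weeks was possible, and week and cluster composition cannot be told apart in library totals.

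Levels are in CPM, the UMIs of a gene per 1e6 UMIs of the same nuclei, for each library with at least 10 nuclei of a cluster. Intervals are exact at 95% (Poisson for levels, Clopper-Pearson for shares) and cover counting error only. Nuclear RNA is mostly unspliced, so long genes collect more UMIs. The 6 genes span 17578 bp (Robo3, chr9:37415669-37433246) to 737790 bp (Robo1, chr16:72308306-73046095). Slit1 lies at chr19:41600257-41743665, Slit2 at chr5:47983138-48307733, Slit3 at chr11:35121224-35708507 and Robo2 at chr16:73891839-74411825. Robo1 and Robo2 point at each other on chromosome 16 with their ends 845743 bp apart, so neither runs into the other. Features that overlap the 6 genes held at most 47 UMIs in all kept nuclei.

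Slit3 was the ligand with the most UMIs and the widest range along the trajectory. RGL held 2.61, 9.40, 23.6 and 15.9 CPM in w1, w2, w4 and w8. NPC held 0, 6.16 and 13.1 in w1, w2 and w4, from 0, 2 and 1 UMIs. Slit3 was therefore close to absent before the neuroblast stage in each library. NB1 held 479, 429 and 361 CPM in w1, w2 and w4, above every RGL and NPC library. NB2 held 348, 232 and 167. GCimm1 held 1662, 1068 and 1729 in w1, w2 and w4, and GCimm2 1418, 1868 and 1605 in w2, w4 and w8, so the immature clusters overlapped each other and stood apart from neuroblasts. GCyoung held 2203 (w4) and 2229 (w8), GCmat1 1671, 2132 and 2183 in w1, w4 and w8, and GCmat2 2119.7 (w4) and 2132 (w8). The w1 value of GCmat1 came from 17 nuclei found 1 week after tamoxifen, sooner than granule cells are known to mature, and how they came to carry the label was not tested. These nuclei gave the highest or the lowest GCmat1 value of each of the 6 genes, and their GCmat2 markers summed to 1928 CPM against 728 in w4 and 977 in w8. Slit3 UMIs were in 100% of GCyoung and of GCmat2 nuclei and in 1.90% of NPC, beside 4.44% of Oligo (2 of 45 nuclei), which should lack the gene, with median depths of 7458, 7254, 4278 and 4801 UMIs.

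Slit1 was split between progenitors and mature granule cells. In RGL it was at 0.435, 2.35, 4.42 and 6.37 CPM in w1, w2, w4 and w8, from 14 UMIs in all, and in NPC at 56.1, 77.0 and 91.7 in w1, w2 and w4, from 28, 25 and 7 UMIs. Every NPC library was above every RGL library. NB1 was at 4.56, 8.07 and 6.72, NB2 at 1.04, 3.98 and 0, GCimm1 at 1.53, 1.19 and 3.08, and GCimm2 at 2.59, 4.32 and 0, all close to the 4.55 of Oligo (1 UMI, interval 0.115 to 25.4). GCyoung stood at 147 (w4) and 128 (w8), and GCmat1 at 416, 316 and 345 in w1, w4 and w8, with no overlap between them. GCmat2 was lower than GCmat1 in both its libraries, at 61.9 (w4) and 165 (w8). A Slit1 UMI was in 86.2% of GCmat1 nuclei, 52.6% of GCyoung and 13.3% of NPC, beside 2.22% of Oligo.

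The NPC signal of Slit1 rested on few nuclei. Its 67 UMIs lay in 28 of 211 NPC nuclei, and 1 nucleus of w1 held 13 of them. Of those 28 nuclei, 9 also had a UMI of Eomes, the intermediate progenitor factor, against 86 of all 211. The list of Cajal-Retzius cell markers summed to 70.1 CPM in NPC, with 2 of 5 markers at 0, against 18.0 in RGL and 16.1 in NB1. Reln alone gave 65.7 of the 70.1, and Lhx1 and Trp73 had 2 UMIs each. By library the list was at 86.2, 61.6 and 13.1 in NPC of w1, w2 and w4, from 43, 20 and 1 UMIs, and at 85.1 in NB1 of w4. The endothelial list was also higher in NPC, at 50.4 against 6.07 in RGL and 7.25 in NB1. The microglia list was lower, at 27.4 in NPC against 53.4 in RGL and 40.6 in NB1. The part of Cajal-Retzius or other cells in the NPC level of Slit1 was not tested.

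Slit2 was present in every stage, highest in NPC and GCimm2, with a further rise in GCmat2. RGL was at 165, 113, 67.7 and 194 CPM in w1, w2, w4 and w8, and NPC at 265, 234 and 183 in w1, w2 and w4, so the ranges overlapped although NPC was higher within each shared library. NB1 was at 87.5, 94.2 and 82.9, and NB2 at 59.5, 81.0 and 25.6, the last from 2 UMIs in 18 nuclei. GCimm1 was at 94.6, 172 and 217, and GCimm2 at 243, 292 and 313. GCyoung was at 55.9 and 93.4, below every GCimm2 library, but its w8 value was close to the 94.6 of GCimm1 in w1. GCmat1 was at 70.4, 37.2 and 65.2 and GCmat2 at 137 and 176. In the order of levels over all libraries, GCimm2 (259.5) and NPC (245) did not differ beyond their intervals, nor did GCmat2 (165) and GCimm1 (174), or NB2 (63.2), GCmat1 (61.8) and GCyoung (59.1).

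**Figure D1:**
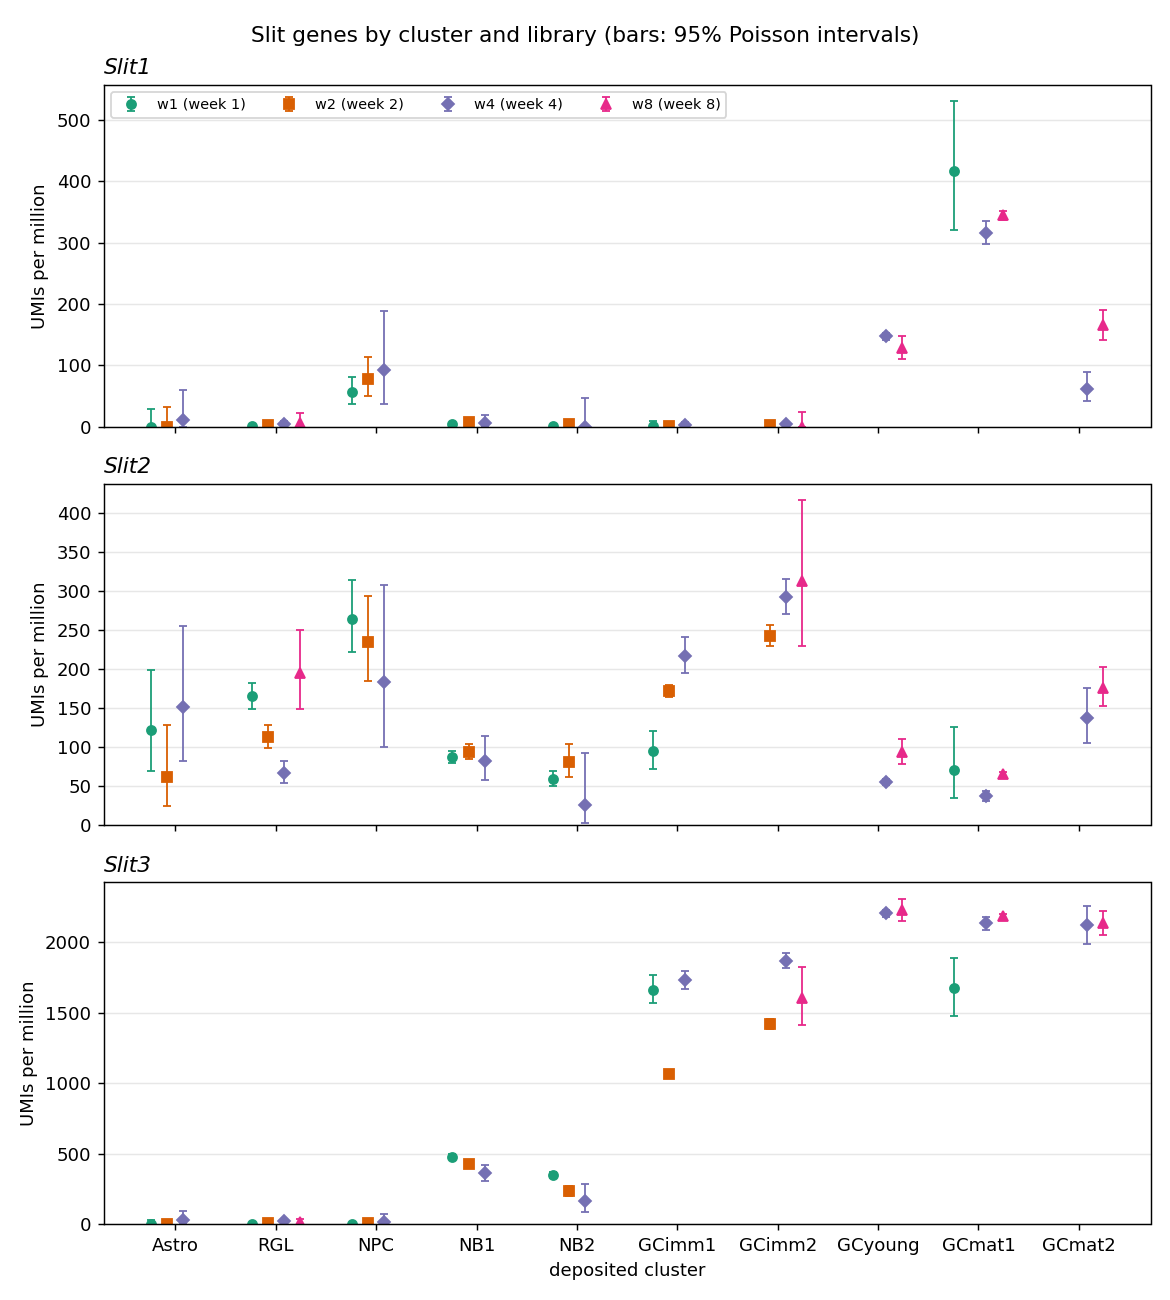
Levels of Slit1, Slit2 and Slit3 (vertical axes, CPM) in the 10 clusters Astro to GCmat2 (horizontal axis), 1 point for each library with at least 10 nuclei and bars for 95% Poisson intervals. Slit3 sits at 0 to 32.5 in Astro, RGL and NPC and at 1671 or more in GCyoung, GCmat1 and GCmat2, Slit1 reaches 56.1 to 91.7 in NPC and 316 to 416 in GCmat1, and Slit2 has its highest values in NPC and GCimm2.

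Along the trajectory Robo1 was highest in immature granule cells. It was at 49.1, 56.4, 33.9 and 95.6 CPM in RGL (w1, w2, w4, w8) and at 158, 123 and 105 in NPC (w1, w2, w4). NB1 was at 221, 195 and 211, and NB2 at 269.5, 284 and 333. Each of these clusters lay above the one before it in every shared library. GCimm1 was at 615, 715 and 750.3 in w1, w2 and w4, and GCimm2 at 817, 823 and 1033 in w2, w4 and w8, with no overlap. In GCyoung the values were 339 (w4) and 390.4 (w8), in GCmat1 109, 247 and 152 (w1, w4, w8), and in GCmat2 128 (w4) and 66.8 (w8). The highest mature library was thus below the lowest GCimm library. A Robo1 UMI was found in 94.8% of GCimm2 nuclei and 59.1% of GCmat1 nuclei, although GCmat1 was sequenced more deeply (medians 6979 and 8138 UMIs), beside 2.22% of Oligo.

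Robo2 was high at both ends of the trajectory and low between them. RGL was at 924, 613, 809 and 979 CPM in w1, w2, w4 and w8, and NPC at 1014, 647 and 1298 in w1, w2 and w4. NB1 was at 217, 138 and 226, below every RGL and NPC library. NB2 was at 707, 445 and 372 and overlapped neither NB1 nor GCimm1, which was at 275, 315 and 199. GCimm2 was at 547, 375 and 293 in w2, w4 and w8, GCyoung at 976 and 1039, GCmat1 at 871, 996 and 1015, and GCmat2 at 1141 and 1199.6. In the order over all libraries, GCmat2 (1182), GCmat1 (1012) and GCyoung (983) led, and the library ranges of GCmat1 and GCyoung overlapped. A Robo2 UMI was in 83.2% of RGL nuclei, 15.1% of NB1 and 98.4% of GCmat1, beside 4.44% of Oligo.

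Robo3 was found in granule cells of the last 3 clusters. Astro, Peri, Oligo and OPC held 0 Robo3 UMIs, and the limit of 3 counts allows up to 8.95, 9.48, 13.7 and 4.44 CPM in them. RGL, NPC and NB2 held 1 UMI each, NB1 4, GCimm1 8 and GCimm2 24. GCyoung was at 22.3 CPM in w4 and in w8, GCmat1 at 51.2, 37.4 and 37.7 in w1, w4 and w8 (the first from 8 UMIs), and GCmat2 at 37.6 (w4) and 52.4 (w8). GCmat1 and GCmat2 overlapped each other and lay above GCyoung. A Robo3 UMI was in 24.6% of GCmat1 nuclei, in 14.8% of GCyoung and in 0% of Oligo.

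**Figure D2:**
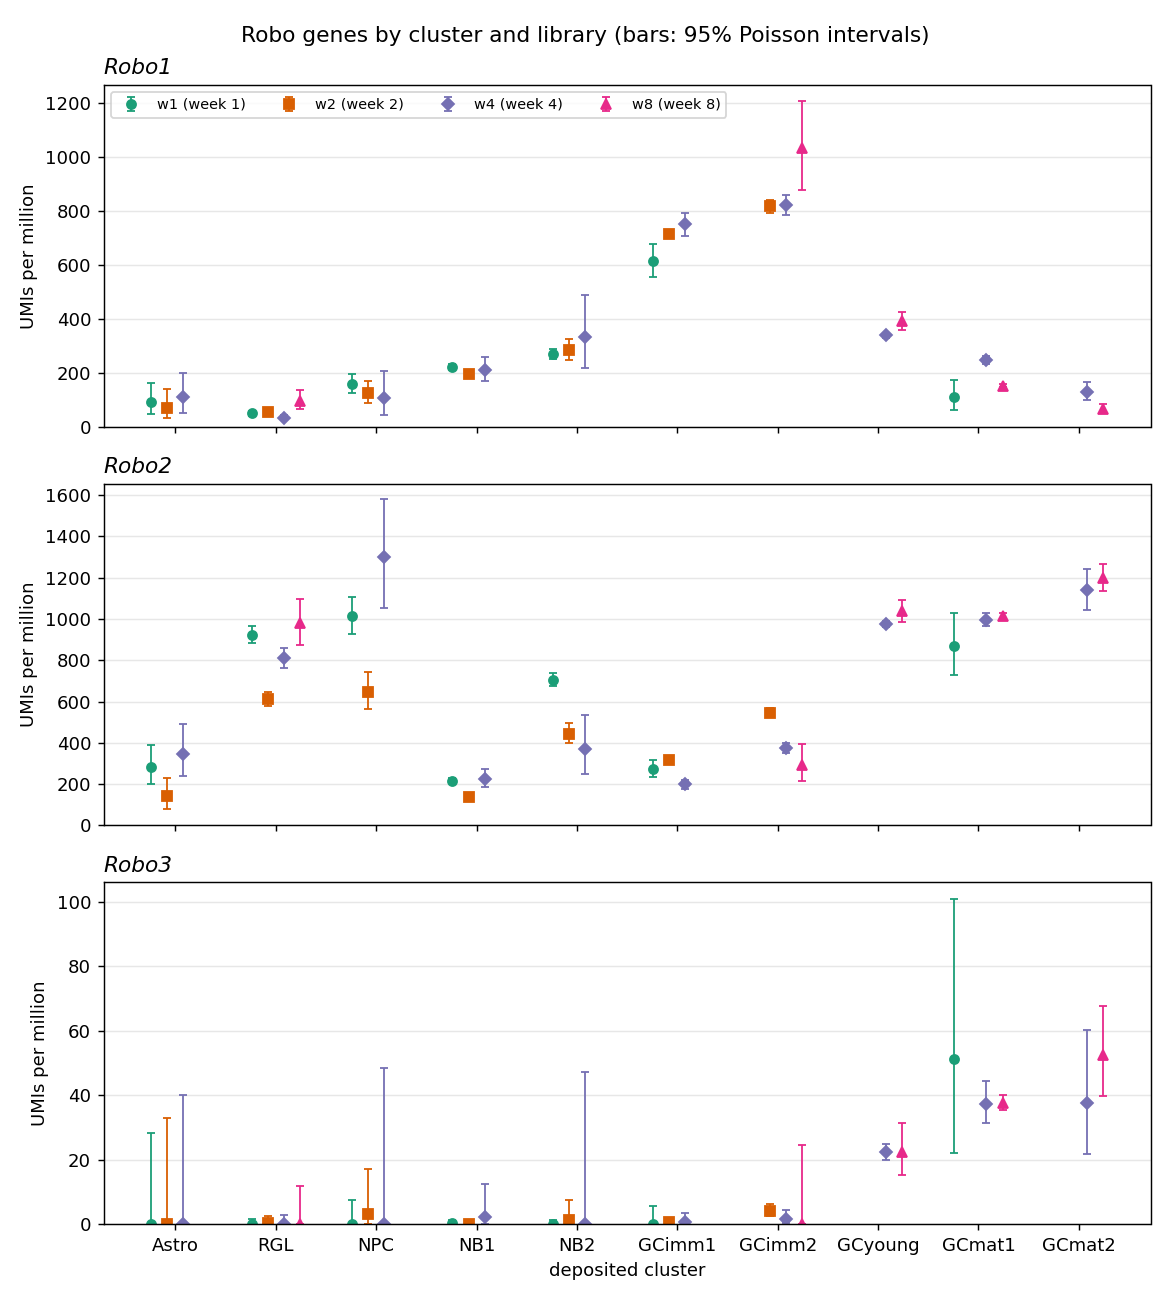
Levels of Robo1, Robo2 and Robo3 (vertical axes, CPM) in the 10 clusters Astro to GCmat2 (horizontal axis), 1 point for each library with at least 10 nuclei and bars for 95% Poisson intervals. Robo1 reaches 615 to 1033 in GCimm1 and GCimm2, where Robo2 is at 199 to 547, and Robo3 stays under 4 until GCyoung.

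Set per 100 kb of gene, so that genes can be compared with each other, the order changed. In GCmat1 Slit3 was at 370.0 CPM per 100 kb, Slit1 at 238, Robo3 at 215, Robo2 at 195, Robo1 at 22.2 and Slit2 at 19.0. Robo3, the gene with the fewest UMIs, was thus on this scale near Robo2 and Slit1. For Robo3 39.0% of the gene is exonic against 2.24% of Robo1, so the scale treats a short spliced gene and a long one unequally. In NPC the ligand with the highest value on this scale was Slit2 at 75.6, with Slit1 at 51.1 and Slit3 at 0.932. In RGL Robo2 was at 152 and Robo1 at 6.87, and in GCimm2 Robo1 was at 112 and Robo2 at 94.0.

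Robo2 had more UMIs than Robo1 in RGL, NPC, NB2 and the last 3 clusters, and Robo1 had more in GCimm1 and GCimm2. NB1 was near even over the whole cluster. Its earliest nuclei along pseudo-time held more Robo2 than Robo1 and its later nuclei more Robo1, as given below. Robo1 made up 6.01% of the UMIs of both genes in RGL (5.37 to 6.69), 13.9% in NPC, 52.9% in NB1, 29.8% in NB2, 70.5% in GCimm1, 62.8% in GCimm2, 25.9% in GCyoung, 13.9% in GCmat1 and 6.68% in GCmat2. These shares are of UMIs and not scaled for length. By library the share was 69.1% to 79.0% in GCimm1 and 4.02% to 8.90% in RGL, far apart. In NB1 it was 50.4% (48.6 to 52.3), 58.6% (55.9 to 61.2) and 48.2% (41.01 to 55.5) in w1, w2 and w4, so w2 alone put Robo1 clearly ahead. Per 100 kb of gene Robo2 led in NB1, at 36.1 CPM against 28.6. The NB2 share was less even, at 27.6%, 39.0% and 47.3% in w1, w2 and w4, and in w4 its interval of 33.7% to 61.2% overlapped the 48.2% of NB1 in that library. Peri (96.3%) and OPC (90.0%) lay at the Robo1 end.

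**Figure D3:**
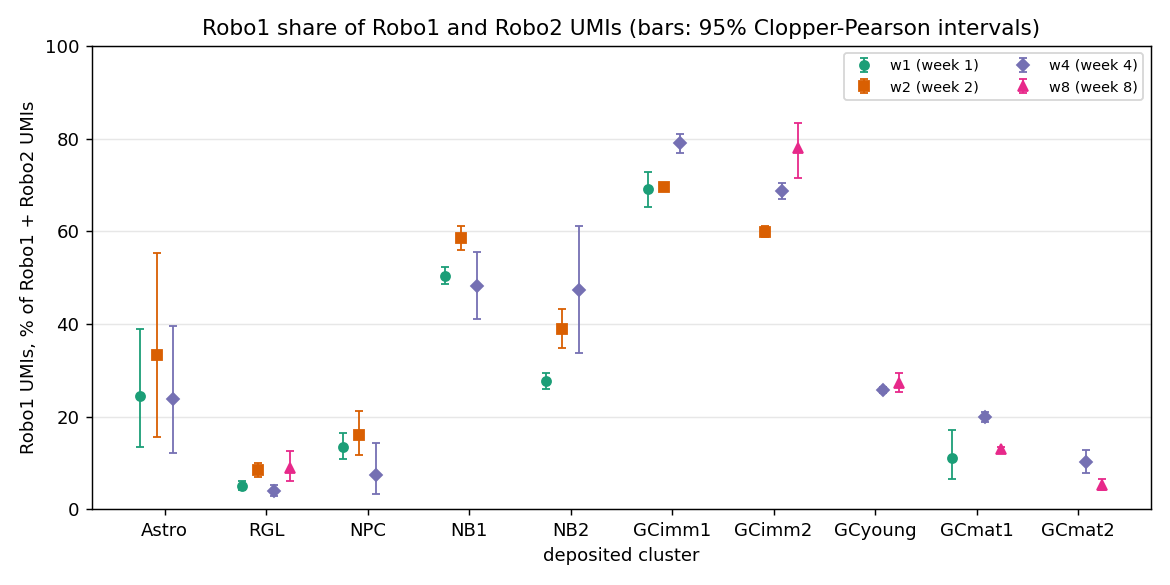
Robo1 UMIs as a percentage of Robo1 and Robo2 UMIs (vertical axis) in the 10 clusters (horizontal axis), 1 point for each library and bars for 95% Clopper-Pearson intervals. GCimm1 lies at 69.1% to 79.0%, and RGL and GCmat2 lie at or below 10.1%.

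Changes between neighbouring clusters were tested with edgeR's quasi-likelihood test on UMIs summed by cluster and library, with cluster and library as terms. Calls needed an adjusted p of 0.05 or less (Benjamini-Hochberg, over the 13513 genes tested) together with a 1.5-fold change or more, and all 6 genes passed its filter on low counts. The clusters were defined on the same nuclei and their genes, so a p-value here is a description of cluster differences. With library as a term, the spread is how unevenly cluster differences repeat over pooled libraries, and not that between animals. Log2 changes are given ± SE, taken as the absolute change over the square root of the F statistic of the test. At few UMIs this SE can fall under the counting error. Nuclei were also tested by sex, called from Y-linked RNAs against Xist and Tsix, since the clusters differed in it (GCyoung 446 male and 1665 female, GCmat1 2327 and 727).

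From Astro to RGL 1 of the 6 genes was called, beside 9.58% of all genes. Robo2 rose by 1.69 ± 0.31 (adjusted p = 5.68e-05) and was higher in RGL in 3 of 3 libraries, at 283, 142 and 347 CPM in Astro. The median of all genes in this comparison was shifted by 0.27. Robo1 differed by -0.78 ± 0.42 (adjusted p = 0.282), lower in RGL in 3 of 3 libraries. Slit2 stood at 123, 62.3 and 152 in Astro and differed by 0.12 ± 0.38 (adjusted p = 0.901).

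The step from RGL to NPC brought 3 increases among the 6 genes, beside 29.5% of all genes called. Slit1 rose by 4.63 ± 0.46 (adjusted p = 6.07e-12), Robo1 by 1.13 ± 0.28 (adjusted p = 0.00134) and Slit2 by 0.69 ± 0.24 (adjusted p = 0.0249), each higher in 3 of 3 libraries. The Robo1 call was lost without w1 (adjusted p = 0.118) and the Slit2 call without w2 (0.141) or without w4 (0.0638), with DESeq2 (0.125) and in male nuclei alone (0.22, adjusted p = 0.610), among 8 of 16 settings. Slit3 differed by -1.88 ± 1.05 (adjusted p = 0.185) at 3 NPC UMIs. Robo2 differed by -0.12 ± 0.25 (adjusted p = 0.772), although its CPM were higher in NPC in 3 of 3 libraries. The fit scales each sum by TMM factors and also takes in RGL of w8, and the part of each in this difference was not tested.

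Between NPC and NB1 ligands and receptors changed in opposite directions within each family. Of the 6 genes 5 were called, beside 29.3% of all genes. Slit3 had 3 UMIs in the 3 NPC sums against 4963 in NB1, a ratio of levels of 137 (95% interval 46.7 to 663). Its fitted change of 7.17 ± 0.62 (adjusted p = 4.43e-14) rests on those 3 UMIs, ran from 5.97 to 8.21 in the other alternatives and was 11.46 after thinning to 2000 UMIs. Slit1 fell by 3.19 on the log2 scale (SE 0.37, adjusted p = 4.90e-10) and Slit2 fell by 1.17 (SE 0.25, adjusted p = 0.000208). Among receptors, Robo2 fell by 2.05 (SE 0.27, adjusted p = 1.27e-08) and Robo1 rose by 0.83 ± 0.26 (adjusted p = 0.0116). Each direction was seen in 3 of 3 libraries. The Robo1 call was lost in female nuclei alone (0.31, adjusted p = 0.598), without w2 (0.116) and with DESeq2 (0.0688), and the Slit2 call in male nuclei alone (-0.68, adjusted p = 0.0639).

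NB1 and NB2 differed in 1 of the 6 genes, beside 2.94% of all genes. Robo2 rose by 1.498 ± 0.26 (adjusted p = 9.00e-05) in NB2, higher in 3 of 3 libraries. Slit1, Slit2 and Slit3 were lower in NB2 in 3 of 3 libraries and did not pass, with changes of -1.73 ± 0.65, -0.44 ± 0.26 and -0.60 ± 0.28 and adjusted p of 0.198, 0.594 and 0.394. Robo1 differed by 0.46 ± 0.22 (adjusted p = 0.432).

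The entry into GCimm1 was compared with both neuroblast clusters. Against NB1, 4 of the 6 genes were called, beside 12.5% of all genes. Slit3 rose by 1.87 ± 0.27 (adjusted p = 3.03e-07), Robo1 by 1.84 ± 0.21 (adjusted p = 7.31e-10) and Slit2 by 1.06 ± 0.22 (adjusted p = 0.000198), while Slit1 fell by 2.06 (SE 0.47, adjusted p = 0.000775), each in 3 of 3 libraries. Within w1 the log2 ratio of Slit2 was 0.113 (95% interval -0.290 to 0.493). For Slit1 the intervals included no change in w1 (-6.93 to 1.01) and in w4 (-3.49 to 1.56). The Slit1 call rested on w2, without which it was -0.94 (adjusted p = 0.670), and 19 UMIs in GCimm1. It was lost also in female nuclei (0.218) and after thinning to 2000 UMIs (0.0523), and the Slit2 call was lost in male nuclei (0.59, adjusted p = 0.103). Robo2 differed by 0.65 ± 0.26 (adjusted p = 0.0880), higher in 2 of 3 libraries. It passed in 6 of 16 settings, with adjusted p of 0.00965 (no filter) to 0.0443 (without w8), and was 0.19 without w2 (adjusted p = 0.878). Against NB2, 4 of the 6 genes were called, beside 7.59% of all genes, and both comparisons share the GCimm1 sums. Slit3 rose by 2.47 ± 0.29 (adjusted p = 3.10e-09), Slit2 by 1.501 ± 0.26 (adjusted p = 2.35e-05) and Robo1 by 1.38 ± 0.22 (adjusted p = 5.28e-06), and none of these calls was lost in the alternatives run. Robo2 fell by 0.85 (SE 0.26, adjusted p = 0.0262), lower in 3 of 3 libraries, and the call was lost in 7 of 16 settings, among them without w1 (-0.51, adjusted p = 0.451) or w4 (0.0798), in male (0.0956) or female (0.362) nuclei alone, with DESeq2 (0.0649) and with no library term (0.0588).

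GCimm1 and GCimm2 shared only w2 and w4, and 3 of the 6 genes were called, beside 9.43% of all genes. Slit2 rose by 0.77 ± 0.21 (adjusted p = 0.00791), Robo2 by 0.87 ± 0.26 (adjusted p = 0.0166) and Robo3 by 2.60 ± 0.59 (adjusted p = 0.00129), each higher in 2 of 2 libraries. All sums enter the fit, and within w2 and w4 the log2 ratios of Slit2 were 0.499 and 0.427, under the fold needed for a call. Those of Robo2 were 0.797 and 0.913. All 3 were lost without w2, with adjusted p of 0.110, 0.402 and 0.777, and 0 of 6 genes were then called by edgeR, with 2 at an unadjusted p under 0.05. Slit2 was lost also without w1 (0.0507) and Robo2 without w4 (0.0955), and DESeq2 called 1 gene. In nuclei of 1 sex, Slit2 was lost in females (0.156) and Robo3 in males (1.22, adjusted p = 0.864). The Robo3 change rested on 8 and 24 UMIs and was 1.86 without w2. Robo1 differed by 0.42 ± 0.21 (adjusted p = 0.256) and Slit3 by 0.20 ± 0.27 (adjusted p = 0.774).

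From GCimm2 to GCyoung 5 of the 6 genes were called, beside 18.9% of all genes, and the members of each family moved apart. Slit1 rose by 5.59 ± 0.35 (adjusted p = 3.99e-18), the largest change among the 6 genes after that of Slit3 into NB1, and was 6.18 without w4. Robo3 rose by 3.69 ± 0.48 (adjusted p = 2.34e-08), from 4 UMIs in w4 and 0 in w8 in GCimm2. Robo2 rose by 1.41 ± 0.28 (adjusted p = 0.000123), a call lost without w4 (1.22, adjusted p = 0.0623). Slit2 fell by 1.84 (SE 0.25, adjusted p = 6.34e-08) and Robo1 fell by 1.01 (SE 0.24, adjusted p = 0.00116). Each direction held in 2 of 2 libraries. Slit3 differed by 0.60 ± 0.30 (adjusted p = 0.172), higher in both libraries, and passed without w1 (0.0155). In w8 GCimm2 had 28 nuclei.

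The last steps changed fewer of all genes than the step from GCimm2 to GCyoung. From GCyoung to GCmat1 3 of the 6 genes were called, beside 3.85% of all genes. Slit1 rose by 1.36 ± 0.19 (adjusted p = 1.18e-06), Robo3 rose by 0.79 ± 0.23 (adjusted p = 0.0295) and Robo1 fell by 0.94 (SE 0.23, adjusted p = 0.00675), each in 2 of 2 libraries. DESeq2 called 0 of them, with adjusted p of 0.0545, 0.258 and 0.114, and gave 3 an unadjusted p under 0.05. Robo3 was lost in 9 of 16 settings, among them without w4 (0.495) or w8 (0.446), in male (0.349) or female (0.48, adjusted p = 0.962) nuclei alone, after thinning (0.700) and with labels made without the members and the pathway list (0.0516). Robo1 was lost without w8 (0.304) and in female nuclei (0.160). From GCmat1 to GCmat2, the cluster marked by Bdnf and Acvr1c, 3 of the 6 genes were called, beside 7.3% of all genes, with the median of all genes shifted by -0.14. Slit2 rose by 1.47 ± 0.27 (adjusted p = 7.50e-05), Slit1 fell by 1.61 (SE 0.22, adjusted p = 1.95e-07) and Robo1 fell by 1.10 (SE 0.28, adjusted p = 0.00644), each in 2 of 2 libraries. Slit1 was at -2.59 without w8, and the Robo1 call was lost without w8 (-0.77, adjusted p = 0.403), in female nuclei (-0.52, adjusted p = 0.747) and with DESeq2 (0.122). Robo2 and Slit3 differed by 0.29 ± 0.27 and 0.02 ± 0.30.

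**Figure D4:**
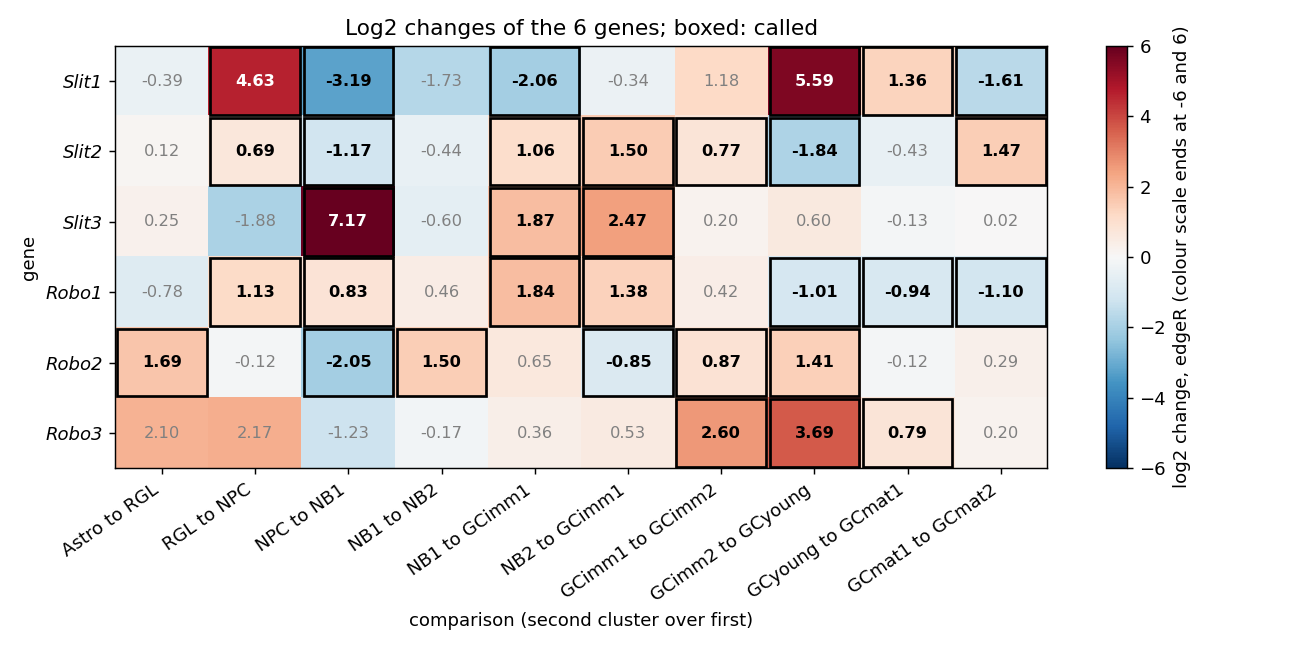
Fitted log2 changes of the 6 genes (rows) in the 10 comparisons (columns), blue to red for lower to higher in the second cluster, with boxed cells for calls. Robo1 rises into GCimm1 and falls in the steps after GCimm2, Robo2 has the opposite signs from NPC to NB1 and from GCimm2 to GCyoung, and the darkest cells are Slit3 from NPC to NB1 (7.17) and Slit1 from GCimm2 to GCyoung (5.59).

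Division of the clusters into equal numbers of nuclei along the deposited pseudo-time, a position each nucleus has from its expression, located the changes. It was chosen after the data were seen, uses the same genes as the order itself and is given without a test. Robo2 peaked late in NPC, at 326, 499 and 1909 CPM in successive parts of about 70 nuclei. In w1 the values were 331, 659 and 2192, and in w2 423, 245 and 1210.4, so both libraries had their highest part last. In the first of 5 parts of NB1, Robo2 was still at 791, and in the other 4 at 27.2, 53.0, 38.9 and 38.7. By library the first part stood at 908, 599 and 644 in w1, w2 and w4 and the second at 28.5, 18.7 and 56.2. The NB1 level of 188 over the whole cluster was therefore mostly that of its first part, which held 1702 of 2046 UMIs. Eomes was likewise highest in the last NPC part and the first NB1 part, at 115, 231 and 331 in NPC and at 131, 28.1, 13.1, 5.87 and 0.455 in NB1.

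Slit3 ran the other way through NB1, at 27.0, 319, 291, 579 and 1048 CPM. The first part held 18.1, 32.6 and 107 in w1, w2 and w4 and the last 1334, 818 and 879, without overlap. Robo1 dipped and then climbed, at 166, 72.1, 138, 278 and 397. Slit2 was at 177, 52.6, 54.4, 83.1 and 82.4 and Slit1 at 23.2, 2.72, 1.88, 1.81 and 0.455, both highest in the first part as Robo2 was. Early NB1 nuclei thus held more Robo2 and Slit2, and late NB1 nuclei more Slit3 and Robo1.

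**Figure D5:**
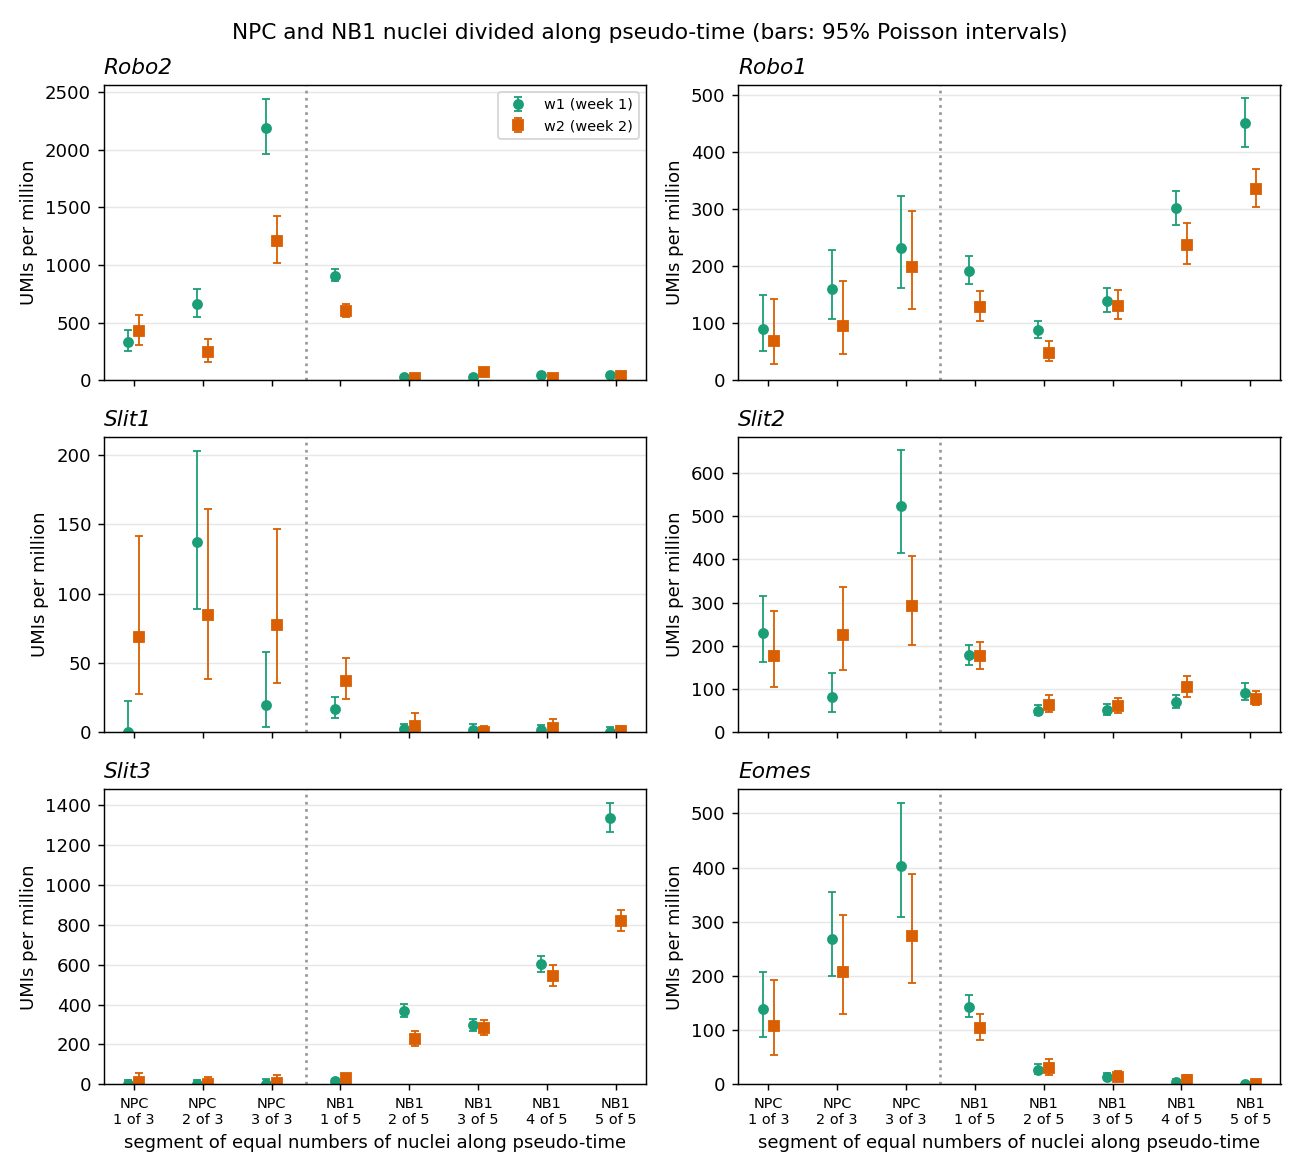
Levels of Robo2, Robo1, Slit1, Slit2, Slit3 and Eomes (vertical axes, CPM) in 3 parts of NPC and 5 parts of NB1 with equal numbers of nuclei along pseudo-time (horizontal axis, dotted line between the clusters), points for w1 and w2 and bars for 95% Poisson intervals. Over all libraries, a level not drawn, Robo2 is highest in the last NPC part (1909) and lies at 791 in the first and 27.2 in the second NB1 part, where Slit3 lies at 27.0 and 319.

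Later clusters showed slopes of the same kind. In NB2, Robo1 was at 113, 247 and 460 CPM and Robo2 at 848, 555 and 530.5 in 3 successive parts. Through 5 parts of GCimm1, Robo2 stood at 125, 111, 242, 379 and 510.02 and Slit2 at 118, 134, 170.3, 186 and 227. Through GCyoung, Slit1 went from 57.3 to 143 and 241, Robo3 from 8.20 to 25.4 and 33.8, Slit2 from 107 to 39.3 and 28.4, and Robo1 from 554 to 236 and 232. The Slit1 order held in w4 (56.0, 146, 242) and in w8 (76.8, 105, 220.0). Within RGL, Robo2 was at 994, 697 and 617 and Robo1 at 66.8, 54.5 and 23.7. Except for Slit1 in GCyoung, these slopes are over all libraries, which can enter the parts in different shares. In RGL nuclei up to a pseudo-time of 2.256, Robo2 was at 934 and 979 in w1 and w8, with median pseudo-times of 0.791 and 0.697. It was at 622 and 819 in w2 and w4, with medians of 1.37 and 1.18. The part of library in the RGL slopes was not tested.

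Joint detection within nuclei was described after each nucleus was thinned to 2000 UMIs, with 141 shallower nuclei left out. The number of nuclei with a UMI of both genes was set beside the product of the shares of each. For Slit3 and Robo2 in NB1 it was 23 nuclei against 56.3 in w1, 22 against 34.0 in w2 and 3 against 6.51 in w4. Slit2 and Robo2 in NB1 went the other way, at 36 against 19.6 in w1 and 18 against 10.7 in w2. Robo1 and Robo2 were together in 61 NB1 nuclei of w1 against 42.3. The number of nuclei limits the smaller of these counts. Each product was taken over NB1 as a whole in a library. Early NB1 nuclei held more Robo2 and Slit2, and late NB1 nuclei more Slit3. The counts of Slit3 or Slit2 with Robo2 can therefore follow from these slopes along pseudo-time. Joint detection among nuclei of similar pseudo-time was not tested.

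Outside the trajectory Robo1 differed between Peri, OPC and Oligo, and Robo3 was at 0 in these 3. Over all libraries Robo1 was at 1643 CPM in Peri, 358 in OPC and 4.55 in Oligo, and Slit2 at 189.5, 35.5 and 4.55. Peri had the highest Robo1 level of any cluster, at 1149.7 (w1) and 1872 (w2) CPM and in 98.3% of its nuclei. Its Slit2 was at 559.6 in w1 and 23.6 in w2, so the 2 libraries did not describe 1 level. OPC held Robo1 at 314, 399, 269 and 423 in w1, w2, w4 and w8, and Robo2 at 38.3, 19.5, 87.7 and 22.3. Slit1 in OPC came to 12 UMIs and Slit3 to 2.

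Other genes of the pathway were followed with a list of 48, of which 46 were tested. Of these, 6 were called from Astro to RGL (1 up and 5 down), 12 from RGL to NPC (7 and 5), 15 from NPC to NB1 (11 and 4), 3 from NB1 to NB2 (2 and 1), 7 from NB1 to GCimm1 (4 and 3), 5 from NB2 to GCimm1 (3 and 2), 4 from GCimm1 to GCimm2 (1 and 3), 10 from GCimm2 to GCyoung (3 and 7), 2 from GCyoung to GCmat1 (0 and 2) and 6 from GCmat1 to GCmat2 (5 and 1). As shares of the list against all genes, in the same order, these were 13.04% against 9.58%, 26.1% against 29.5%, 32.6% against 29.3% and 6.52% against 2.94%. Then came 15.2% against 12.5%, 10.9% against 7.59%, 8.70% against 9.43%, 21.7% against 18.9%, 4.35% against 3.85% and 13.04% against 7.3%. Most were near the share of all genes, and NB1 to NB2 and GCmat1 to GCmat2 were the furthest from it in ratio. Changes of single list genes were not followed through the alternatives. The median log2 change of the list was 0.27 from NPC to NB1 beside 0.06 for all genes, and from GCimm2 to GCyoung -0.02 beside 0.03.

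Of 12 tested extracellular and membrane partners of the receptors, 4 were called from RGL to NPC (29.5% of all genes), 5 from NPC to NB1 (29.3%), 1 from NB1 to NB2 (2.94%) and 4 from NB1 to GCimm1 (12.5%). From GCimm2 to GCyoung (18.9% of all genes) 5 of the 12 were called, all lower, with a median log2 change of -1.24 over the 12. From GCmat1 to GCmat2 (7.3%) 3 were called, all higher. Further, 2 were lower from Astro to RGL (9.58%) and from GCimm1 to GCimm2 (9.43%), 2 higher from NB2 to GCimm1 (7.59%) and 1 lower from GCyoung to GCmat1 (3.85%). Dcc, the netrin receptor that Robo1 silences in commissural axons, went from 63.8 CPM in RGL to 4716 in NPC, a rise of 5.65 ± 0.35 (adjusted p = 7.07e-19), after a fall of 2.98 from Astro to RGL. It rose by 0.94 from NPC to NB1 (adjusted p = 0.0164) and by 1.248 ± 0.31 from NB2 to GCimm1 (adjusted p = 0.00460), where it reached 8924 CPM. It then fell by 1.31 from GCimm2 to GCyoung (adjusted p = 0.00614) and rose by 1.31 from GCmat1 to GCmat2 (adjusted p = 0.00715). Nell2, a ligand of Robo3, rose by 3.17 ± 0.29 into NPC (adjusted p = 3.85e-13) and by 0.74 from NB1 to GCimm1. Nell1, its relative, rose by 6.89 ± 0.49 from NPC to NB1, from NPC sums with few counts at 0 to 9.24 CPM. Nell1 fell by 1.00 in NB2, rose by 1.20 in GCimm1 and then fell by 2.04, 1.76 and 3.25 in the steps to GCimm2, GCyoung and GCmat1. It rose by 5.46 ± 0.39 from GCmat1 to GCmat2 (adjusted p = 5.89e-16), at 2.47 and 141 CPM. Eva1c, a Slit-binding membrane protein, fell by 3.53 into NPC, rose by 3.21 in NB1 and fell by 1.23 in GCimm2 and by 1.20 in GCyoung. Its NPC sums in the fit held 0 to 4.01 CPM, and all NPC nuclei held 9 UMIs, so the first 2 changes rest on few counts. Among heparan sulfate proteoglycans, which hold Slit on the cell surface, Sdc4 fell by 2.01 from Astro to RGL and by 2.32 into NPC, where it held 8 UMIs. Sdc2 fell by 2.05 from NPC to NB1 and rose by 0.96 from NB1 to GCimm1, and Gpc1 rose by 0.82 from NB1 to GCimm1 and fell by 1.46 from GCimm2 to GCyoung. Cxcr4, whose signalling Slit can dampen, fell by 1.35 from NB1 to GCimm1.

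Of 5 GTPase activating proteins, 3 were called from GCimm2 to GCyoung (18.9% of all genes) and at most 1 in any other comparison. Of 17 kinases and actin effectors, 7 were called from NPC to NB1 (29.3%) and 2 from GCimm2 to GCyoung. Srgap1, a GTPase activating protein that binds Robo tails, fell by 2.12 from Astro to RGL, rose by 1.23 ± 0.20 from NB1 to NB2 and by 0.73 from NB1 to GCimm1, and fell by 0.63 in GCimm2 and by 2.39 ± 0.28 from GCimm2 to GCyoung, where Arhgap39, another such protein, rose by 1.18 ± 0.17. Srgap2 rose by 0.71 from NB2 to GCimm1, fell by 0.87 in GCyoung and by 0.75 in GCmat1, and rose by 0.67 in GCmat2. Cap2, an actin-binding protein, fell by 0.77 into NPC, by 3.32 from NPC to NB1 and by 1.44 from NB1 to GCimm1, then rose by 2.90 ± 0.31 in GCimm2 and by 3.82 ± 0.24 in GCyoung, at 346.6 CPM. Its relative Cap1 rose by 1.06 in GCyoung and fell by 0.87 from GCmat1 to GCmat2. Evl, of the Ena/VASP actin regulators, rose by 1.48 from Astro to RGL (9 UMIs in Astro), by 1.16 in NPC and by 0.63 in NB1. The adaptor Nck2 rose by 1.04 in NPC and by 0.96 in NB1, and fell by 0.67 from NB1 and by 0.83 from NB2 to GCimm1. The sulfotransferase Hs6st2, which modifies heparan sulfate, rose by 3.60 ± 0.29 in NB2, fell by 3.67 ± 0.32 in GCimm1 and rose by 3.34 ± 0.36 in GCmat2.

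Genes whose log2 levels over the 10 clusters were most like those of each member are given as a description, since the points share libraries and depth. For Slit3 these were Grin1 (Pearson r = 0.995), Slc7a14 (0.992) and Grin1os (0.992), and for Robo3 Mtmr12 (0.988), Nptn (0.987) and Slc26a4 (0.986). For Slit1 they were Gm15901 (0.975), Iqgap2 (0.965) and Pip5k1a (0.963), and for Robo1 Rasef (0.952), RP24-294K15.4 (0.938) and Clec2l (0.935). Robo2 and Slit2 had weaker matches, led by Tcaim (0.892) and Trappc2 (0.830), followed by Herc3 (0.888) and Gas7 (0.876) for Robo2 and Gm23935 (0.813) and Calr (0.810) for Slit2. Among the members the closest pair was Slit1 and Robo3 (0.860), while Robo1 and Robo2 were at -0.27.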

How the data were processed

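Nuclear RNA of sorted dentate gyrus nuclei was analysed by library, deposited cluster and deposited pseudo-time. The authors counted UMIs over exons and introns with STARsolo 2.7.4a on mm10, per the labels and the study's methods, and deposited whole-number counts for 45706 features in each of the 4 libraries. They also deposited a table of log2 values of normalized expression, which was used only for the relabelling alternative. Kept nuclei were those with a column in that table, so the filters on nuclei and doublets are those of the authors. No columns were left unused for lack of a sample.

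Members and lists were chosen with earlier results of these data known. Counts were summed by cluster and library in 29 sums of at least 10 nuclei and fitted in 1 model with edgeR 4.0.16 in R 4.3.3 (filterByExpr, TMM, glmQLFit, glmQLFTest, cluster and library as terms, 16 residual degrees of freedom, common dispersion 0.0142). Each week is 1 of the 4 libraries used here. With library as a term, p-values measure how unevenly cluster differences repeat over these pools, which may be technical. Peri, Oligo and OPC entered no test. On data simulated at the sizes of these sums, with 100 genes changed 4-fold and 100 changed 2-fold in each comparison, 99 to 100 and 56 (Astro to RGL) to 99 (GCyoung to GCmat1) were recovered, with 17 false calls from Astro to RGL and 3 to 8 in the other comparisons. The simulation gave all clusters 1 mean profile and all genes 1 spread near the fitted one, without library effects. Changed genes were drawn only from those with enough expected counts. It therefore does not describe genes with few UMIs, spreads that differ by gene or comparisons with many changed genes. Named genes were the 6 members, the 2 largest called increases and decreases of the pathway list in each comparison, and the 3 genes most like each member. Positions are from GENCODE M21 on GRCm38, and the microRNA sequence is from RefSeq. Alternatives were RLE factors, DESeq2, no filter, no library term, 20 or 50 nuclei per sum, a fold change of 2, thinning to 2000 UMIs, each library left out, nuclei of 1 sex, labels made without the members and the pathway list, and GCmat1 with pseudo-time only. Gene symbols were taken from the feature files.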

Additional observations from a re-analysis of the deposited data

Results flagged for a closer look

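The 2679 barcodes that are in the count files but have no cluster were used in no comparison, and all 6 genes were above the limit of 3 counts in them. Slit1 was at 220.1 CPM there against 140.0 in the kept nuclei, and Robo3 at 27.0 against 17.4. Robo1 was lower, at 211 against 337, and so were Slit2 at 82.6 against 105.0, Slit3 at 1408 against 1505 and Robo2 at 702 against 720.5. The libraries enter these values in different shares, and Slit2 was higher in w1 (142 against 105) and Robo2 in w2 (383 against 369). Of these barcodes 1628 were from w4, where Slit1 was at 275 against 135, Robo1 at 171 against 370.5 and Robo3 at 33.5 against 19.6. In w8, with 268 such barcodes, Slit1 was at 282 against 319 and Robo1 at 153 against 166. Per the study's methods, the authors removed doublets and nuclei of low quality, and from w4 a mostly male set that was unlike another dataset of theirs. Which barcodes belong to that set was not analysed here.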

How the results depend on the processing

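Of 32 calls of members, 17 were kept in all alternatives run. Of 543 alternative values of the changes followed, 56 lost the call and 7 gained it. From GCimm1 to GCimm2 the 3 members called became 1 at a fold change of 2, 1 with no library term and 1 with DESeq2, and leaving out 1 library gave 0 to 3. From GCyoung to GCmat1 the 3 became 1 at a fold change of 2, 0 with DESeq2 and 1 in female nuclei alone, and leaving out 1 library gave 1 to 3. The cause was not tested, except that fewer nuclei or sums enter the last ones. The lowest counts of calls of all genes came without w4 from GCimm2 to GCyoung (2553 to 487), without w2 from NB1 to GCimm1 (1691 to 780) and from GCimm1 to GCimm2 (1274 to 410), in male nuclei from Astro to RGL (1295 to 367) and from GCyoung to GCmat1 (520 to 213), and in female nuclei from RGL to NPC (3992 to 2019), NPC to NB1 (3964 to 2401), NB1 to NB2 (397 to 61), NB2 to GCimm1 (1026 to 417) and GCmat1 to GCmat2 (986 to 405). The shift of the median of all genes from Astro to RGL was 0.07 with RLE factors. As a mean over nuclei, Slit3 in GCyoung was 2178 CPM against 2202, and 2146 after thinning. Robo3 in GCmat2 was 69.4 after thinning against 48.1. New labels made without the members and the pathway list agreed for 96.5% of nuclei. The library term is 1 additive term over all sums, so libraries that hold only 1 cluster of a comparison also enter its estimate. The labels carry no replicate numbers for any pairing. Sums of 18 (NB2, w4), 17 (GCmat1, w1), 22 (NPC, w4) and 28 (GCimm2, w8) nuclei, and counts under 10 UMIs of Slit1, Slit3 and Robo3 before GCyoung, limit precision.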

Other observations

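GCmat1 nuclei that the deposited table gives no pseudo-time differed in some members from the other nuclei of that cluster. Per the study's methods, GCmat1 nuclei with a strong signal of ventral genes were kept out of the pseudo-time. The number given there is larger than that of GCmat1 nuclei without a pseudo-time, since 3136 of 3356 had one. The nuclei without a pseudo-time may thus not be the same set. They were likely selected by their expression, which was not checked here. In w8, where 216 of them lay, Robo3 was at 2.502 CPM against 41.4 in the 2711 with pseudo-time, and Slit2 was at 143 against 57.1. Robo2 was at 677 against 1050.2. Slit1 stood at 402 against 339, Slit3 at 2430.04 against 2158 and Robo1 at 171 against 149.97. Leaving these nuclei out changed no call of a member from GCyoung to GCmat1 or from GCmat1 to GCmat2. The 2 sets come from 1 library, so the differences have no replicate.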
